A study of Mus musculus with 13 samples.

Results

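The piRNA pathway and transposon defence genes described here are *Piwil2*, *Mov10l1*, *Asz1*, *Pld6*, *Tdrd1*, *Tdrkh*, *Tdrd9*, *Mael*, *Gtsf1* and *Tex19.1*, 10 of the 55335 genes with a row in the count table. They were taken by name for their known roles, under a rule that uses no measured value, although earlier results of these data were known. All 10 had counts in each of the 13 libraries and were among the 13086 genes that passed the filter on low counts. Each library came from OCT4-GFP positive germ cells, marked by the transgene Tg(Pou5f1-EGFP)2Mnn and FACS sorted from the ovary pair of 1 female embryo at E17.5. The comparisons ask whether germ cells that lack the glucocorticoid receptor (GR, encoded by *Nr3c1*) differ in the mRNA of these genes.

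In the constitutive cross, 3 KO embryos were homozygous for a null *Nr3c1* allele, made by deleting the floxed exon 3 of Nr3c1tm1.1Jda with a β-actin Cre line, and 3 WT embryos carried the GFP transgene and functional GR. This deletion acts in every tissue of the embryo and not only in germ cells. In the conditional cross, all embryos were homozygous for the floxed exon 3, and tamoxifen was given to their dams at E10.5 (125 μg/g). The 4 cKO embryos also carried Pou5f1tm1.1(cre/Esr1*)Yseg, a tamoxifen-activated Cre under *Pou5f1*, and the 3 flox embryos were controls without Cre, although the strain label of all 7 lists this allele. The cKO therefore removes GR from germ cells only where Cre was active after that injection. No tamoxifen is described for the constitutive cross. The labels call the libraries of a group biological replicates, and litters are not given.

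piRNAs are small RNAs of the germline that guide PIWI proteins to transcripts of transposable elements. PIWI proteins cut these transcripts and, in the fetal testis, direct DNA methylation to their genes. Precursor piRNAs are unwound by an RNA helicase, cut at the outer mitochondrial membrane and passed between granules of nuage by Tudor domain proteins, which bind methylated arginines of PIWI proteins. In mice, loss of most of these genes derepresses retrotransposons and arrests male meiosis, whereas females are mostly fertile, although fetal oocytes also express the pathway and lose cells when LINE-1 activity is high.

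The promoter sequences are shown because 5 of the 10 genes share a CACGTG E-box in the window around their start sites. RefSeq windows on GRCm38.p6, from 250 bases before to 50 bases after the start site, were matched for 9 genes, and none was matched for *Piwil2*. The letters CACGTG, which read the same on both strands, lie in the windows of *Mael*, *Mov10l1*, *Tdrd1*, *Tdrd9* and *Pld6*. Of 27025 such windows, 1 per gene, 7.24% hold these letters. The E-boxes are in capitals in the following stretches, each 5′ to 3′ on the strand of its gene.
Mael, chr1:166238950-166238979, minus strand: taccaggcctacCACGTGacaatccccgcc
Mov10l1, chr15:88982744-88982765, plus strand: ccttCACGTGctaaccgccaac
Tdrd1, chr19:56826186-56826215, plus strand: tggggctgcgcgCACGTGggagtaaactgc
Tdrd9, chr12:111971382-111971411, plus strand: ggtctccataaaCACGTGcctgtccaggtc
Tdrd9, chr12:111971452-111971481, plus strand: gcacgaggctccCACGTGcatgcagggcct
Pld6, chr11:59787673-59787702, minus strand: ggggcgggctggCACGTGttgggcgcgcaa
The E-box began 223 bases before the start site in *Mael*, 246 in *Mov10l1*, 11 in *Tdrd1*, 165 and 95 in *Tdrd9* and 33 in *Pld6*.

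GR binds DNA as pairs of the half-site AGAACA, or TGTTCT on the other strand. This half-site was matched in 1 of the 9 windows, that of *Asz1*, starting 9 bases after the start site, and in 19.0% of all windows. It is in capitals below.
Asz1, chr6:18109035-18109064, minus strand: gcaggcaccggaAGAACAgcttggagccat
The CCAAT box (CCAAT or ATTGG) lies in the windows of 5 of the 9 genes, *Mael*, *Mov10l1*, *Tdrd9*, *Tdrkh* and *Pld6*, and in 38.0% of all windows. The E2F-like letters TCCCGC or GCGGGA lie in those of *Mael* and *Tex19.1*, and in 20.1% of all windows. Stretches upstream of *Mael* and *Gtsf1* are given because *Mael* had the highest level and the most motif matches of these types, and *Gtsf1* the largest difference between KO and WT. Capitals mark the E-box and the CCAAT boxes.
Mael, chr1:166238748-166238994, minus strand: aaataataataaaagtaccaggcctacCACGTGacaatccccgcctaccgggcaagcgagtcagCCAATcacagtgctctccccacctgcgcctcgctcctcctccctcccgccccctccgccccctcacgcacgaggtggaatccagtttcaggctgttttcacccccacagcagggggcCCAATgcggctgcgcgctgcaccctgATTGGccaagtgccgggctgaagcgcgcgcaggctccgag
Gtsf1, chr15:103430471-103430677, minus strand: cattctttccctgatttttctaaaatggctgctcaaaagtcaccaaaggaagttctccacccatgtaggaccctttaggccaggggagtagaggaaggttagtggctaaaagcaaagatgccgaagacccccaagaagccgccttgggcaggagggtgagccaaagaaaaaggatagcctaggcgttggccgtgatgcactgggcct
The whole window of *Gtsf1* held none of the 4 motifs. CpG dinucleotides numbered 10 in *Tdrd9* to 25 in *Tdrkh*, with a median of 18 over the 9 windows against 7 over all windows. The letters CACGTG themselves hold a CpG, and their share among windows of like CpG count was not measured. These matches describe letters in a window and say nothing about which factors were bound there.

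**Figure D1:**
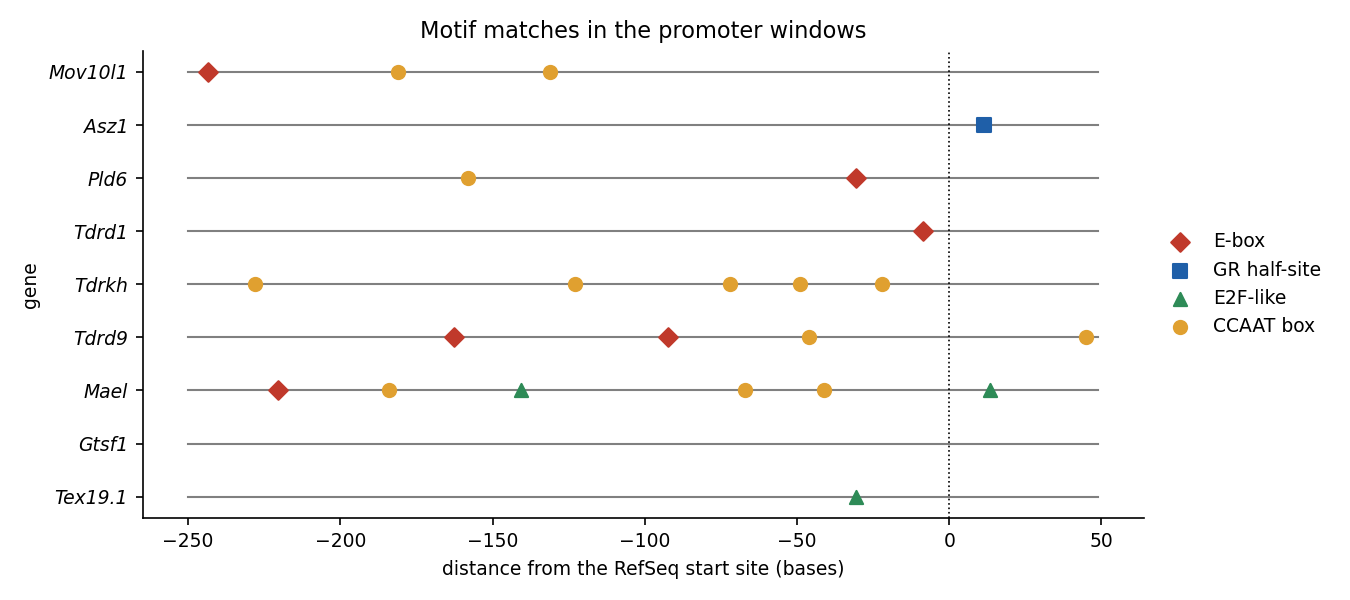
Position of motif matches in the promoter windows of 9 genes. The horizontal axis is the distance in bases from the RefSeq start site (dotted line), and symbols mark the middle of each E-box, GR half-site, E2F-like and CCAAT match. E-boxes lie in 5 windows, upstream of the start site in each, and the single GR half-site lies in *Asz1*.

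Depth was 2048706 to 3674989 counts per library (median 2483236), so that 1 count is worth 0.272 to 0.486 CPM, which scale counts by total and TMM factor. Mitochondrial genes took 5.37% to 13.5% of the counts, with the highest share in KO replicate 3. *Nr3c1* stood at 46.0, 29.1 and 58.7 CPM in the WT, 34.2, 26.2 and 73.4 CPM in the KO, 46.5, 46.7 and 104.3 CPM in the flox and 59.2, 48.4, 30.1 and 72.8 CPM in the cKO libraries. The groups overlapped, and the mean was 44.63 CPM in both the KO and the WT. 3′ tags lie outside the deleted exon 3, and counts per gene do not show that exon. However, by 3′ single-cell RNA-seq at an earlier stage, the paper reports that KO ovaries had depleted total *Nr3c1* transcript in every cell type. No such depletion was seen between KO and WT here, and the reason was not tested. In these counts the genotypes therefore rest on the labels. Outside them, the paper describes genotyping of embryos in the constitutive cross from tail clips. It also reports complete loss of GR staining in KO ovaries at E17.5, and loss by immunoblot and qRT-PCR at earlier stages. Of 10 fetal oocyte markers, 9 had counts, and their summed level was 10030 to 17520 CPM. The remaining marker, *Sycp3*, was at 0 in every library, and its interval lies wholly inside *Chpt1*. Summed levels were 107.5 to 380.2 CPM for 15 markers of ovarian somatic cells (*Tcf21*, whose interval lies wholly inside *Gm10824*, at 0 throughout), at most 19.21 CPM for 6 macrophage markers and at most 104.2 CPM for 4 endothelial markers. The sum of 8 erythroid markers reached 1263 CPM in flox replicate 1 and was 0 in KO replicate 3, and *Hbb-y*, *Hba-x* and *Alas2*, the last wholly inside *Apex2*, were at 0 throughout.

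All 10 genes were expressed in female germ cells at E17.5. Per kilobase of exon, the mean over the 13 libraries ran from 701 CPM for *Mael*, rank 40 of the 12775 genes ranked, to 13.1 CPM for *Tdrkh*, rank 3799. Between them stood *Gtsf1* at 130.1, *Tex19.1* at 118, *Mov10l1* at 116, *Piwil2* at 105, *Tdrd1* at 75.0, *Asz1* at 65.7, *Tdrd9* at 64.6 and *Pld6* at 22.8 CPM per kilobase. Tags of this protocol come from transcript ends, so that division by exon length is only a common scale. The value of *Tdrkh* has a further limit. The last 500 bases of its interval lie inside *Oaz3*, a gene of the opposite strand, and all 1218 protein-coding genes whose intervals lie wholly inside other genes had 0 counts. For the other 9 genes, none of the last 500 bases lies inside another gene. In these bulk samples, fewer expressing cells and less RNA per cell cannot be told apart.

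*Piwil2* (chr14:70372477-70429383 of mm10) encodes the PIWI protein MILI, which binds piRNAs in fetal germ cells. Its level was 277, 462 and 562 CPM in the WT, 611, 585 and 536 CPM in the KO, 713, 477 and 512 CPM in the flox and 651, 619, 742 and 453 CPM in the cKO libraries. The lowest value was WT replicate 1, and 2 of 3 KO libraries lay above all WT libraries. The log2 fold change of KO over WT was 0.41 (SE 0.29, 95% confidence interval -0.18 to 1.01, adjusted p = 0.959). That of cKO over flox was 0.12 (SE 0.27).

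*Mov10l1* (chr15:88982909-89055152) encodes the RNA helicase that brings precursor transcripts into piRNA processing. It stood at 420.3, 521 and 595 CPM in the WT, 593, 469.6 and 339 CPM in the KO, 448, 702 and 452 CPM in the flox and 412, 384, 496 and 469 CPM in the cKO libraries. In the constitutive cross KO replicate 3 was lowest, and KO replicate 1 was close to the highest, WT replicate 3. Its log2 fold change was -0.13 (SE 0.28) for KO and -0.28 (SE 0.26) for cKO.

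*Asz1* and *Pld6* encode proteins of the outer mitochondrial membrane, where ASZ1 helps to anchor nuage and PLD6 (MitoPLD) is needed for the cut that makes piRNA ends. *Asz1* (chr6:18050964-18109061) was at 221, 207 and 139 CPM in the WT, 169.9, 179 and 227 CPM in the KO, 177, 211 and 163 CPM in the flox and 267, 183, 145 and 125 CPM in the cKO libraries. Its log2 fold changes were near 0, at 0.02 (SE 0.33) for KO and -0.03 (SE 0.30) for cKO. *Pld6* (chr11:59783897-59787645) was the least counted of the 10 genes and the most uneven, with 13.7, 77.9 and 14.7 CPM in the WT, 27.4, 33.5 and 71.7 CPM in the KO, 110.3, 28.4 and 21.3 CPM in the flox and 42.9, 24.2, 41.5 and 13.8 CPM in the cKO libraries. In each control group 1 library stood far above the others, WT replicate 2 and flox replicate 1. The confidence interval of its fold was accordingly wide, from 0.438 to 3.58 for KO over WT and from 0.217 to 1.52 for cKO over flox. The log2 fold change was 0.32 for KO, and 1.64 without WT replicate 2. For cKO it was -0.80, and 0.30 without flox replicate 1.

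*Tdrd1*, *Tdrkh* and *Tdrd9* encode Tudor domain proteins. TDRD1 holds MILI in nuage, TDRKH binds PIWI proteins at mitochondria for trimming of piRNA ends, and TDRD9 is also an RNA helicase. *Tdrd1* (chr19:56826209-56870012) was at 296, 492 and 445 CPM in the WT, 526, 421 and 356 CPM in the KO, 364, 321 and 312 CPM in the flox and 593, 213, 486 and 483 CPM in the cKO libraries. Of the 4 cKO libraries, 3 lay above every flox library and replicate 2 lay below them all. *Tdrkh* (chr3:94413273-94434668) was at 76.5, 87.9 and 74.5 CPM in the WT, 56.2, 112.8 and 51.0 CPM in the KO, 62.1, 96.4 and 57.2 CPM in the flox and 113.9, 79.3, 122.3 and 55.2 CPM in the cKO libraries. *Tdrd9* (chr12:111971559-112068854) was at 473, 400.4 and 320.3 CPM in the WT, 303, 354 and 249 CPM in the KO, 213, 422 and 433 CPM in the flox and 369, 348, 286 and 373 CPM in the cKO libraries. Flox replicate 1 had the lowest *Tdrd9* level of all 13. Log2 fold changes of KO over WT were 0.08 (SE 0.32) for *Tdrd1*, -0.12 (SE 0.42) for *Tdrkh* and -0.40 (SE 0.30) for *Tdrd9*. For cKO over flox they were 0.42 (SE 0.30), 0.37 (SE 0.40) and -0.05 (SE 0.28) in the same order.

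*Mael* (chr1:166201201-166238747) encodes Maelstrom, a nuage protein needed to silence LINE-1 in fetal germ cells. It was at 669, 945 and 1613 CPM in the WT, 1249, 1593 and 1447 CPM in the KO, 1579, 1212 and 1113 CPM in the flox and 1178, 959, 1039 and 1203 CPM in the cKO libraries. WT replicates spanned more than all KO libraries did, with WT replicate 1 lowest and WT replicate 3 highest of the 13. The log2 fold change was 0.41 (SE 0.28, 95% confidence interval -0.17 to 0.99) for KO, between 0.17 without WT replicate 1 and 0.84 without WT replicate 3. It was -0.25 (SE 0.26) for cKO.

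*Gtsf1* (chr15:103402405-103430470) encodes a small zinc finger protein that helps PIWI proteins to cut their targets. It was at 65.9, 102.2 and 182 CPM in the WT, 120.1, 185 and 461 CPM in the KO, 160.2, 122 and 142 CPM in the flox and 288, 104, 163 and 256 CPM in the cKO libraries. KO replicate 3 was the highest of all 13, while WT replicate 3 lay above KO replicate 1, so the groups overlapped. In the conditional cross, 3 of 4 cKO libraries lay above every flox library and replicate 2 below them all. The mean was 255 ± 181 CPM in the KO and 117 ± 59.2 CPM in the WT (SD, n = 3 each). The log2 fold change was 1.13 (SE 0.45, 95% confidence interval 0.20 to 2.06), with an unadjusted p = 0.0198 and an adjusted p of 0.847 in edgeR's quasi-likelihood test. Without KO replicate 3 it was 0.39 (SE 0.44), and without WT replicate 3 it was 1.62 (SE 0.50). KO replicate 3 also had the highest mitochondrial share, 13.5% against 5.37% to 10.51% in the other libraries, and the part of this in the *Gtsf1* level was not tested. For cKO over flox the log2 fold change was 0.52 (SE 0.42, unadjusted p = 0.232).

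*Tex19.1* (chr11:121146143-121148319) encodes a germ cell and placental protein that restrains LINE-1 outside the piRNA pathway. It was at 221, 99.9 and 359.7 CPM in the WT, 250.1, 257 and 239 CPM in the KO, 224, 176 and 155 CPM in the flox and 248, 241, 248 and 158 CPM in the cKO libraries. KO libraries lay close together between the WT values, with an SD of 9.06 CPM against 130.0 CPM in the WT. Its log2 fold change was 0.13 (SE 0.36) for KO and 0.27 (SE 0.33) for cKO. Its neighbour *Tex19.2* shares an exact run of up to 72 bases with it, so reads from such a run may be uncertain between them.

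**Figure D2:**
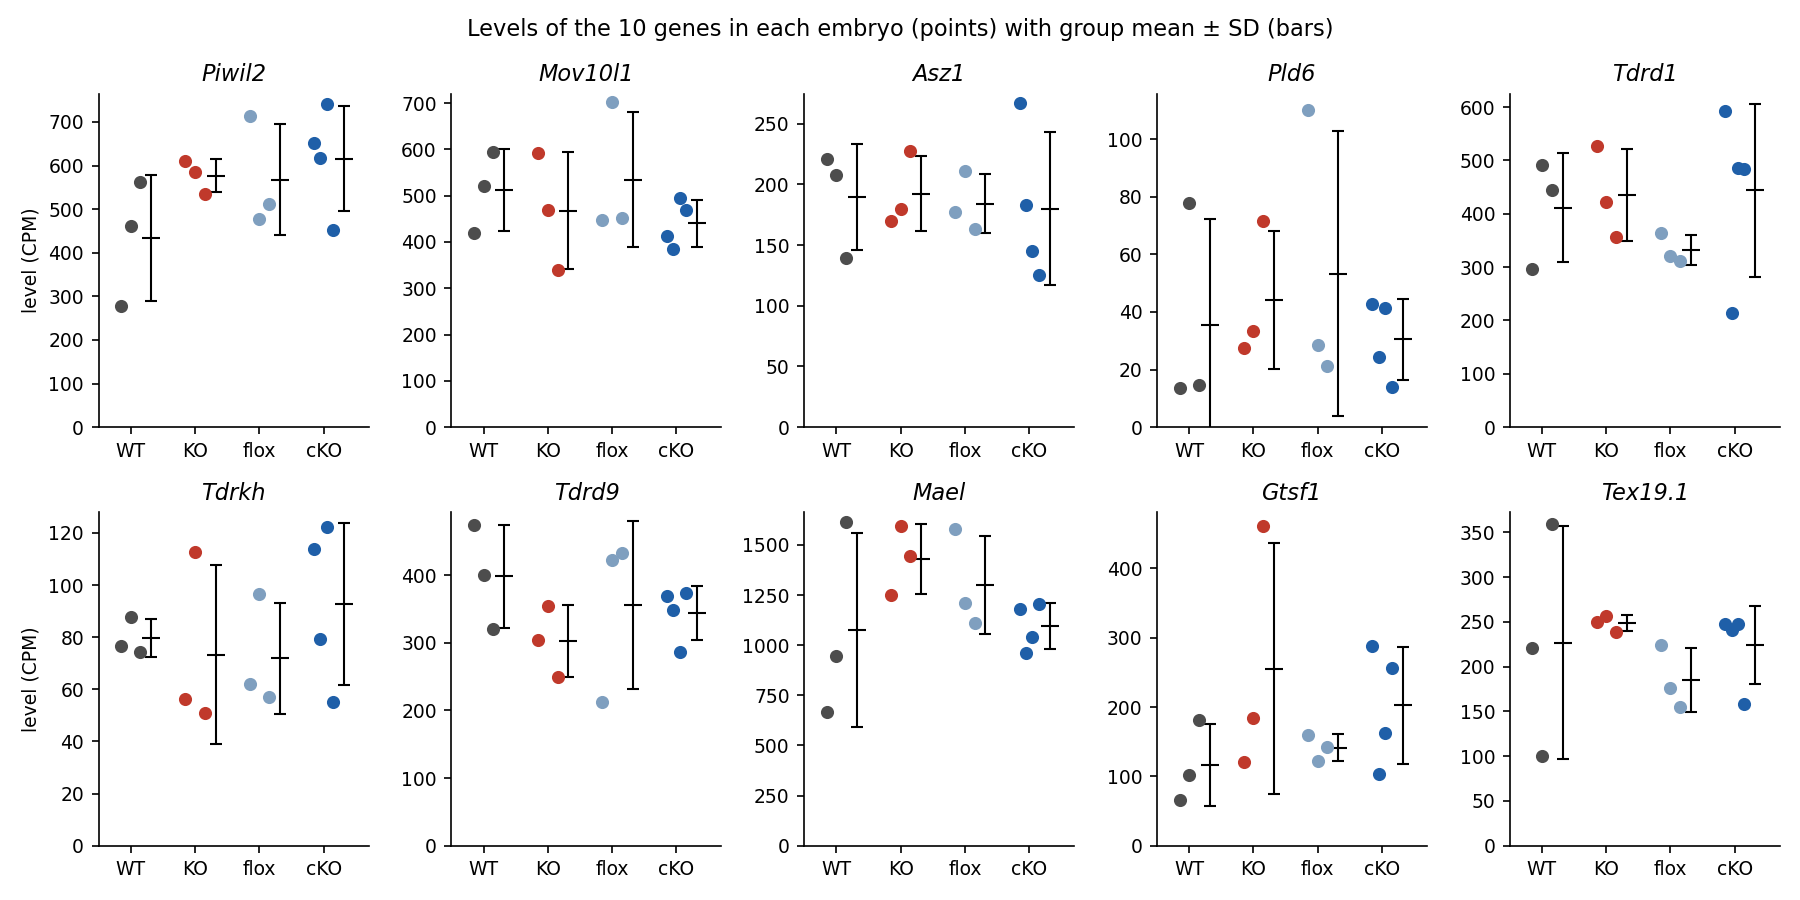
Level of each gene in each embryo. Points are the 13 libraries in CPM on axes that start at 0, grouped as WT, KO, flox and cKO, and bars are the group mean ± SD (n = 3, 3, 3 and 4), with the WT bar of *Pld6* running below 0. The KO and WT points overlap for each of the 10 genes, as do the cKO and flox points.

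None of the 10 genes was called between KO and WT at an adjusted p ≤0.05 in edgeR, and 0.0% of the 13086 tested genes were. DESeq2 and limma voom also called none of the 10. *Gtsf1* was the only gene of the 10 with an unadjusted p under 0.05, a share to be read against 5.82% of all tested genes. No gene of the 10 had KO and WT libraries that did not overlap, against 9.46% of all genes. The fitted log2 fold change was above 0 for 7 and below 0 for 3, with a median of 0.10 against -0.03 over all genes. Exact two-sided permutation tests of mean log2 CPM gave p-values of 0.2 (*Piwil2*, *Tdrd9* and *Gtsf1*) to 0.9 (*Asz1*), where 20 divisions of 3 against 3 allow none under 0.1. The summed level of the 10 genes was 2734 to 4306 CPM in the WT and 3906 to 4191 CPM in the KO libraries, with means of 3479 ± 789 and 4025 ± 148 CPM (SD, n = 3 each). Marker sums of other cell types also differed between these groups. Those of macrophages were 7.249 to 19.21 CPM in the KO and 0.4537 to 2.449 CPM in the WT, and those of endothelium 8.054 to 30.81 CPM in the KO and 34.76 to 44.63 CPM in the WT, without overlap in either, and their part in the levels of the 10 genes was not tested.

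None was called between cKO and flox either, again with 0.0% of all genes called. None had an unadjusted p under 0.05, against 3.19% of all genes, and none had groups that did not overlap, against 4.97%. The lowest unadjusted p was 0.181, for *Tdrd1*. Log2 fold changes ran from -0.80 for *Pld6* to 0.52 for *Gtsf1*, with 5 above and 5 below 0 and a median of 0.04 against -0.01 over all genes. Without flox replicate 1 this median was 0.29. That library had the highest erythroid sum, 1263 CPM, and among the flox libraries the highest *Piwil2*, *Mael*, *Gtsf1*, *Tex19.1* and *Pld6* and the lowest *Tdrd9* and *Mov10l1* levels. It also had the lowest sum of oocyte markers, 10030 CPM. Erythroid sums were 283.6 to 1263 CPM in the flox and 78.37 to 199.3 CPM in the cKO libraries, so that every flox library lay above every cKO library. The part of erythroid RNA in the levels of the 10 genes was not tested. Exact permutation p-values ran from 0.229 (*Mael*) to 0.971 (*Tdrd9*), where the 35 divisions of 4 against 3 allow none under 0.0571. The summed level was 3669 ± 419 CPM in the cKO (SD, n = 4) and 3727 ± 347 CPM in the flox libraries (SD, n = 3).

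**Figure D3:**
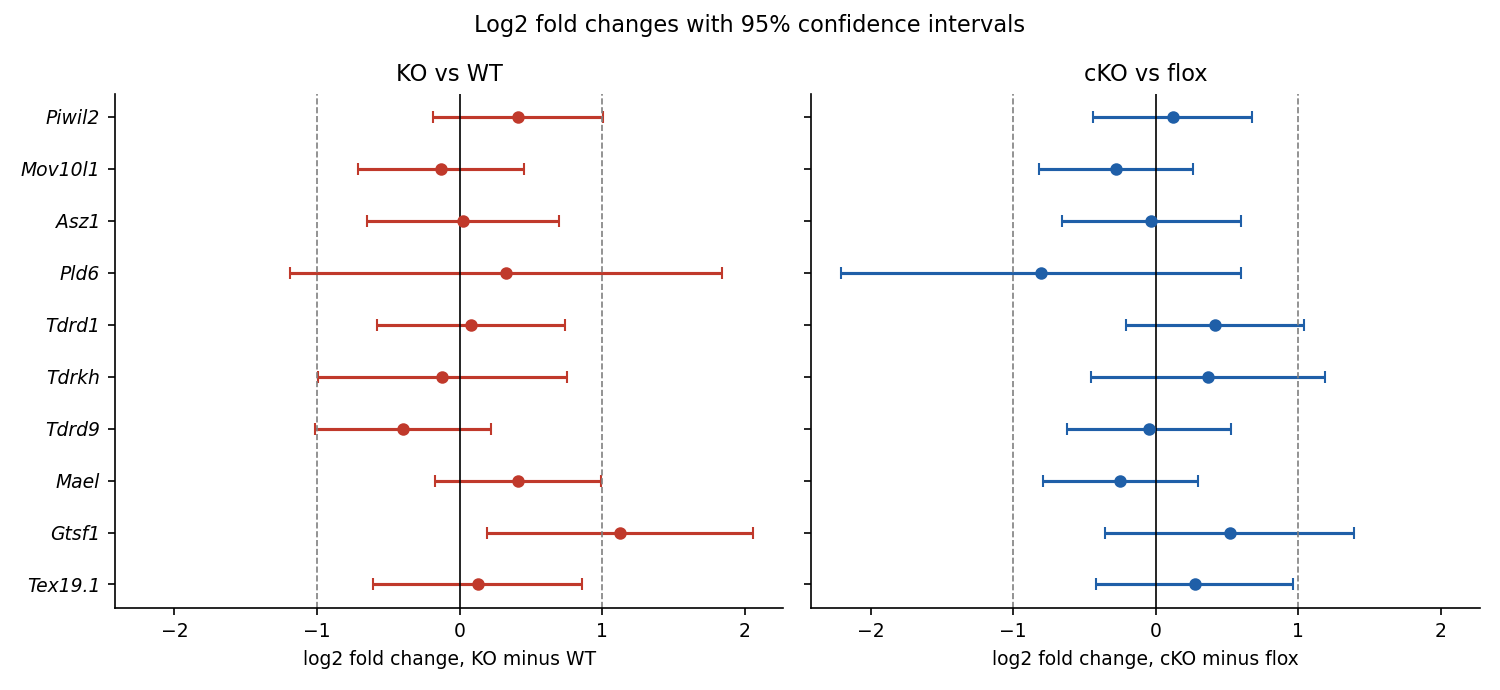
Log2 fold changes of the 10 genes, KO minus WT at left and cKO minus flox at right. Points are edgeR estimates, bars are 95% confidence intervals, and dashed lines mark a log2 change of 1 in either direction. Each interval crosses 0 except that of *Gtsf1* in KO minus WT, which runs from 0.20 to 2.06.

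The size of change that these libraries allow can be read from the intervals. In KO against WT, the 95% confidence interval stayed within a log2 change of 1 in either direction for 6 of the 10 genes, *Mael*, *Mov10l1*, *Tdrd1*, *Tdrkh*, *Asz1* and *Tex19.1*, against 11.6% of all genes. In cKO against flox it did so for 6, *Piwil2*, *Mael*, *Mov10l1*, *Tdrd9*, *Asz1* and *Tex19.1*, against 14.9%. The median SE of the 10 genes was 0.323 for KO and 0.304 for cKO, while that of all genes, most of them less counted, was 0.851 and 0.797. A 2-fold higher level in KO lay within the interval for *Piwil2*, *Gtsf1* and *Pld6*, whose upper bounds were 2.01, 4.17 and 3.58-fold, and a level under 0.5-fold for *Tdrd9* and *Pld6*, whose lower bounds were 0.496 and 0.438-fold. In cKO, the upper bounds of *Tdrd1*, *Tdrkh* and *Gtsf1* were 2.06, 2.28 and 2.62-fold, and the lower bound of *Pld6* was 0.217-fold.

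Averaging both GR effects in 1 fit narrowed these intervals. The interval stayed within a log2 change of 1 for 8 of the 10 genes, against 28.2% of all genes, and the exceptions were *Gtsf1* and *Pld6*. *Gtsf1* had an average log2 fold change of 0.82 (SE 0.31, 95% confidence interval 0.18 to 1.46), an unadjusted p of 0.0138 and an adjusted p of 0.882. The average for *Gtsf1* was 0.46 without KO replicate 3. None of the 10 genes was called (0.0% of all genes), and *Gtsf1* was the only one with an unadjusted p under 0.05, against 5.34% of all genes. The averages of the other 9 lay between -0.24 for *Pld6* and 0.27 for *Piwil2*.

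The difference of the GR effects, cKO minus KO, was tested as an interaction. None of the 10 genes was called (0.0% of all genes) and none had an unadjusted p under 0.05, against 4.39%. The lowest p was that of *Mael*, whose log2 fold change was 0.41 for KO and -0.25 for cKO, a difference of -0.66 (SE 0.39, 95% confidence interval -1.45 to 0.14, unadjusted p = 0.101). For *Gtsf1* the difference was -0.61 (SE 0.61). These intervals are wide, and only 2 of the 10, against 2.74% of all genes, stayed within a log2 change of 1, those of *Asz1* and *Mov10l1*.

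Between the control groups, flox against WT, none of the 10 genes was called, against 0.00764% of all genes (1 gene). None had an unadjusted p under 0.05 (3.06% of all genes), and flox and WT libraries overlapped for each of the 10, while they did not for 8.29% of all genes. Log2 fold changes ran from -0.31 for *Tdrd1* to 0.60 for *Pld6*, with the interval within 1 for 6, against 12.5%. Cross, *Nr3c1* allele and tamoxifen differ together between these groups and cannot be told apart.

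Levels of the 10 genes did not vary as 1 block from embryo to embryo. Among the 45 pairs, the Pearson correlation of log2 CPM, centred on the group means over the 13 libraries, was above 0 for 29 and had a median of 0.17. It was highest for *Mael* with *Gtsf1* (0.66) and with *Piwil2* (0.65), and lowest for *Tdrd9* with *Piwil2* (-0.68), *Pld6* (-0.59) and *Mael* (-0.55). Values of a pair share library depth and composition, and no p is given. The summed level followed *Mael* most closely (0.91), the most counted of the 10, and went against *Tdrd9* (-0.49). Outside the 10, the genes whose log2 CPM was most like the summed level were *Maip1* (0.93), *Slc16a10* (0.92) and *Glod4* (0.88), each with a mean of 19.06 to 34.2 CPM, and they are the highest of all tested genes over only 13 libraries.

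**Figure D4:**
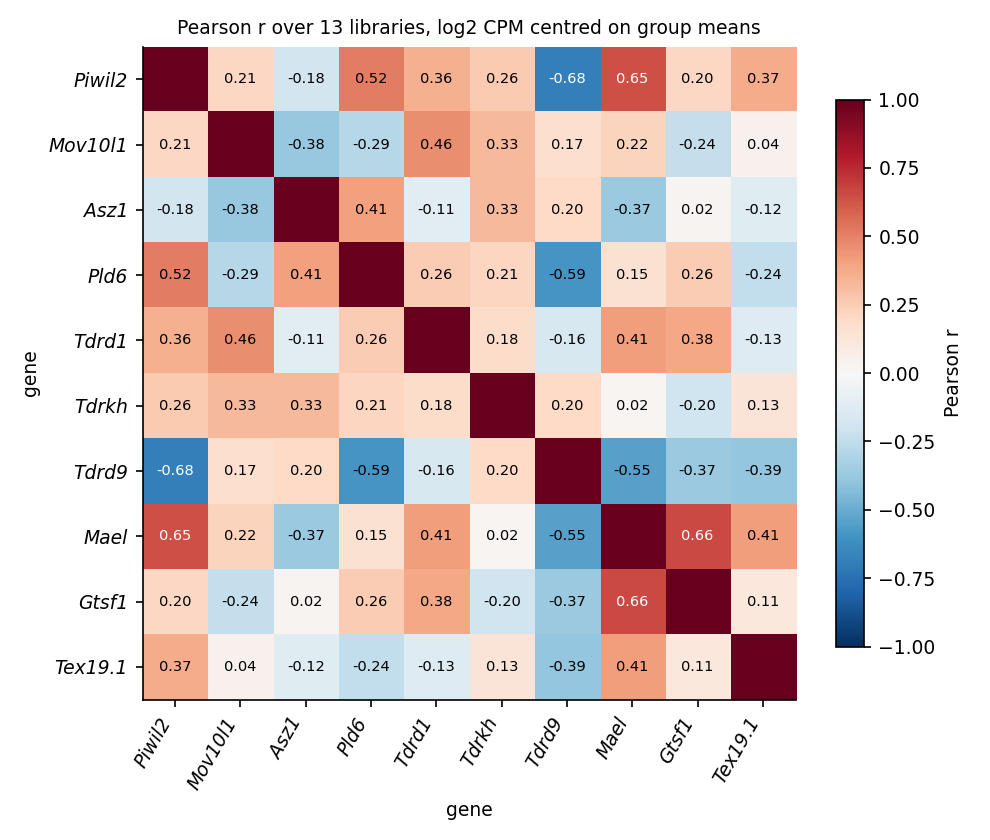
Pearson correlation between each pair of the 10 genes over the 13 libraries, from log2 CPM centred on group means. Colour and printed value give r, from blue (-1) to red (1). *Mael* with *Gtsf1* and *Piwil2* has the highest values, 0.66 and 0.65, and the row of *Tdrd9* holds the lowest.

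Other genes of the piRNA pathway were read from a list of 25, of which 24 were matched to a row and 18 passed the filter. None was called in either comparison. In KO against WT, 9 had a log2 fold change above 0 and 9 below, with a median of 0.05, and 1 had an unadjusted p under 0.05 (5.82% of all genes). That was *Exd1*, which encodes a partner of TDRD12 in piRNA production, at 57.1, 56.9 and 47.9 CPM in the WT and 81.0, 96.7 and 136 CPM in the KO libraries, a log2 fold change of 0.96 (SE 0.43, adjusted p = 0.847). In the conditional cross its value was -0.65 (SE 0.40). Its level also differed between the control groups, at 137.5 ± 30.4 CPM in the flox against 53.9 ± 5.26 CPM in the WT libraries (SD, n = 3 each), which did not overlap (log2 fold change 1.35, SE 0.44, unadjusted p = 0.00488, adjusted p = 1.0 in edgeR). The next lowest p-values in KO against WT were those of *Morc1*, a transposon repressor of male germ cells, at 24.0 ± 1.97 CPM in the KO and 67.5 ± 19.9 CPM in the WT (SD, n = 3 each), and *Ddx4*, the germ cell helicase VASA, at 282 ± 30.7 against 187 ± 25.2 CPM. KO and WT libraries did not overlap for 6 of the 18, *Exd1*, *Morc1*, *Ddx4*, *Prmt5*, *Pnldc1* and *Tex15*, where 9.46% of all genes do so. In cKO against flox, none of the 18 had an unadjusted p under 0.05 or groups apart, against 3.19% and 4.97% of all genes. The lowest p-values there were those of *Prmt5*, the arginine methyltransferase that marks PIWI proteins (log2 fold change -0.72, SE 0.43), *Exd1* and *Rnf17*, a Tudor domain gene (-0.35, SE 0.26). For KO over WT, *Prmt5* was at -0.87 (SE 0.47) and *Rnf17* at -0.14 (SE 0.28), while *Exd1* was at 0.96.

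**Figure D5:**
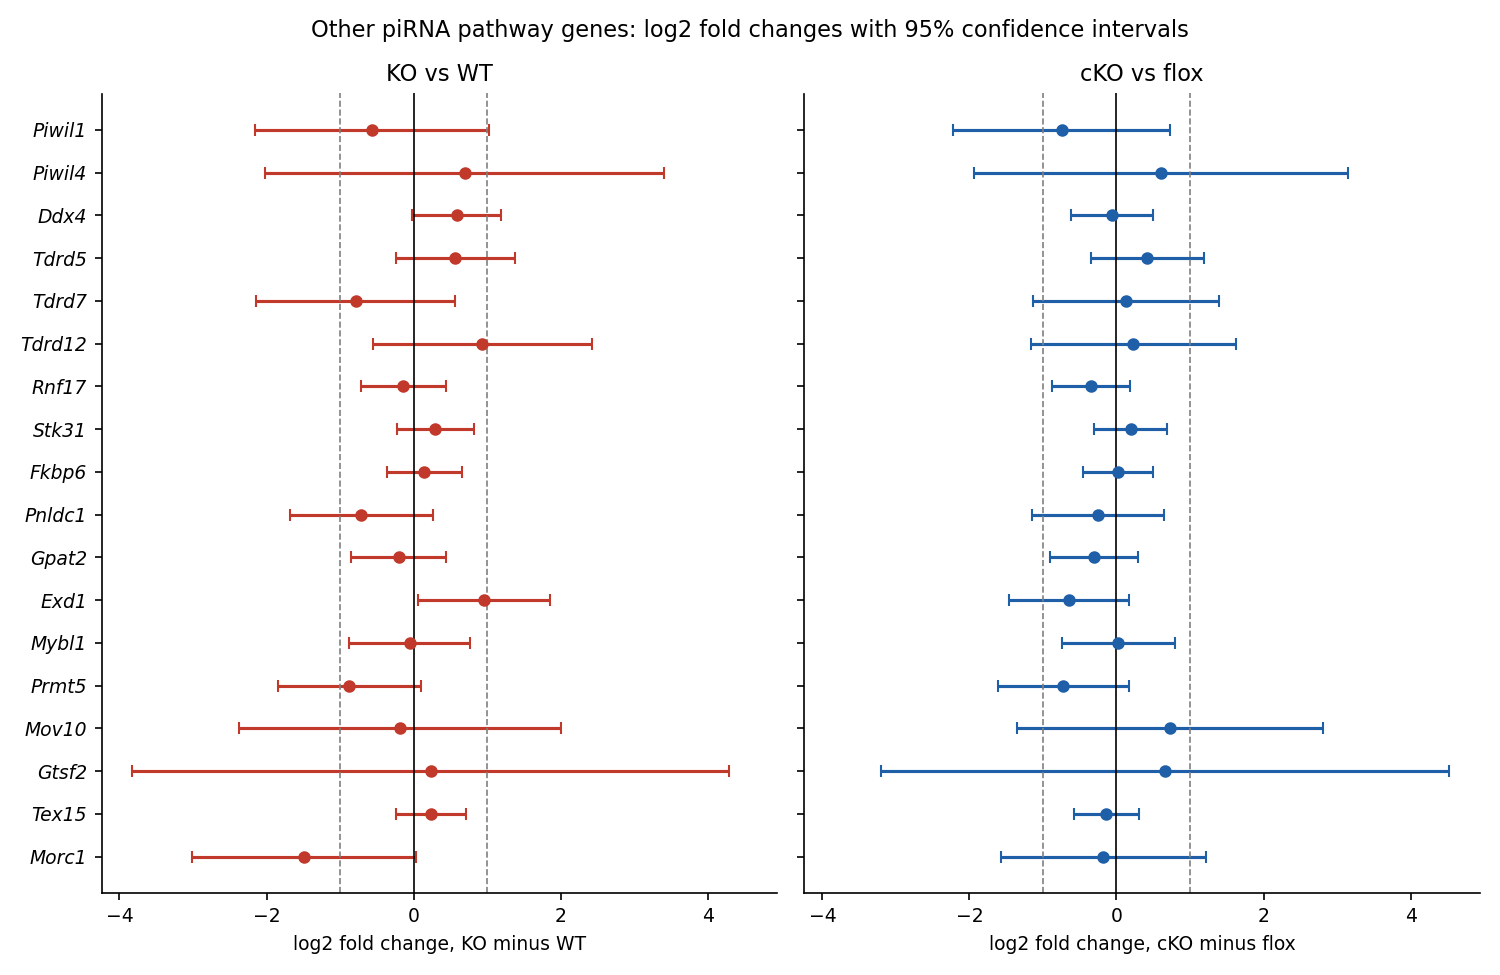
Log2 fold changes of the 18 other piRNA pathway genes that passed the filter, KO minus WT at left and cKO minus flox at right. Points are edgeR estimates, bars are 95% confidence intervals, and dashed lines mark a log2 change of 1. The interval of *Exd1* in KO minus WT is the only one that leaves out 0, and none of these genes passed the adjusted threshold.

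Repressors of retrotransposons outside the piRNA pathway were read from a list of 17, of which 14 passed the filter. None was called in either comparison. In KO against WT, 7 were above and 7 below 0, and 1 had an unadjusted p under 0.05, where 5.82% of all genes do so. It was *Uhrf1*, which brings the maintenance DNA methyltransferase to replicated DNA. It was at 66.4, 59.7 and 48.7 CPM in the WT and 99.6, 121 and 107 CPM in the KO libraries, which did not overlap (log2 fold change 0.91, SE 0.37, unadjusted p = 0.0216, adjusted p = 0.847). The flox level of *Uhrf1*, 85.3 ± 31.2 CPM, also lay above that of the WT, 58.25 ± 8.94 CPM (SD, n = 3 each), without overlap. Its log2 fold change of cKO over flox was 0.30 (SE 0.345). *Morc2a* (-1.23, SE 0.67) and *Pphln1* (0.61, SE 0.48) followed, both linked to the HUSH silencing complex. *Morc2a* was also lower in flox than in WT, without overlap (-1.45, SE 0.67), and its value for cKO over flox was 0.49 (SE 0.63). Flox and WT libraries did not overlap for 8.29% of all genes. In cKO against flox, 2 had an unadjusted p under 0.05, where 3.19% of all genes do so. *Setdb1*, a histone H3K9 methyltransferase, was at 62.0, 94.5, 113.5 and 75.2 CPM in the cKO and 34.2, 61.8 and 23.3 CPM in the flox libraries, which did not overlap (log2 fold change 1.12, SE 0.44, adjusted p = 0.9998, exact permutation p = 0.0571, the smallest possible). The flox level of *Setdb1*, 39.8 ± 19.8 CPM, also lay below that of the WT, 116.5 ± 22.0 CPM (SD, n = 3 each), without overlap (log2 fold change -1.55, SE 0.46, unadjusted p = 0.00281, adjusted p = 1.0 in edgeR), while the cKO libraries averaged 86.3 CPM. *Trim28*, which recruits SETDB1 to retrotransposons, was at 282 ± 61.9 CPM in the cKO (SD, n = 4) and 412 ± 78.2 CPM in the flox libraries (SD, n = 3), a log2 fold change of -0.55 (SE 0.26, adjusted p = 0.9998). *Tex19.2* had a log2 fold change of -0.83 (SE 0.60).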

How the data were processed

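Per the labels and the methods, RNA of sorted germ cells was made into QuantSeq 3′ FWD libraries and sequenced on an Illumina HiSeq. The authors trimmed reads with cutadapt, aligned them to mm10 with STAR 2.6.0 and counted them with featureCounts 1.6.3, and the deposited table holds these raw counts per gene, 1 column per embryo. The strand setting, annotation and treatment of multimapping reads are not given in the sources used here. The length column equals the whole gene interval for all 55335 genes. Names were taken from GENCODE M21, which matched 54587. The authors also deposited tables of their own KO and cKO comparisons (log2 fold changes, test statistics and p-values), which were not used.

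Counts were tested in edgeR 4.0.16 (R 4.3.3) by the quasi-likelihood F test in a fit of all 13 libraries with 4 group means, TMM normalization and filterByExpr (minimum count 10, minimum total count 15). P-values were adjusted by Benjamini-Hochberg over the 13086 genes tested, and genes with an adjusted p ≤0.05 were called. Levels are CPM with their SD, and a prior count of 2 entered log2 CPM. Intervals cover the fitted spread between embryos. No molecular identifiers are described. Two-sided exact permutation p-values are 2 times the smaller one-sided p. No pair of libraries of a group agreed within sampling noise (chi-square per degree of freedom 22.5 to 44.1).

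The members and lists were chosen with earlier results of these data known. The genes named are every member, *Nr3c1*, the 3 lowest p-values of each other list in each comparison, and the 3 genes most like the summed level. *Prmt5*, *Pnldc1* and *Tex15* in KO against WT were named after their values were seen. *Henmt1* was not matched to a row. Motifs were searched on both strands, with 1 window per gene, that of the most upstream start site.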

Additional observations from a re-analysis of the deposited data

Results flagged for a closer look

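In the cKO group, *Tex19.1* had 1 library apart from the others. Replicate 4 stood at 158 CPM, while replicates 1 to 3 stood at 248, 241 and 248 CPM. The gap to the nearest library was 0.923 of the range of the group, above the critical value for 4 libraries. Both ends of the cKO group were looked at for all 10 genes, and chance alone exceeds the critical value in about 1 of 20 groups. Replicate 4 also had the highest summed level of somatic markers, 380.2 CPM against 107.5 to 296 CPM in the other libraries, and the part of this in the *Tex19.1* level was not tested.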

How the results depend on the processing

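None of the 10 genes was called in any comparison under RLE or upper-quartile normalization, DESeq2, limma voom, either other filter, the replicate block or any library left out, nor for KO or cKO in a fit limited to the 2 groups in question. Across all genes, the numbers called for KO against WT were 0 in the chosen fit, 10 with DESeq2, 15 with no filter beyond 1 count, 4 with the replicate block and 0 to 2 with each library left out (2 without WT replicate 3). For cKO against flox they were 0, 5, 11, 3 and 0 in the same order. Same-numbered libraries correlated between -0.02 and 0.06, so the numbers were not taken as pairs. The median log2 fold change of the 10 genes for KO was 0.0386 to 0.1672 with a library left out and 0.20 with the block, and for cKO 0.0212 to 0.2898 (the highest without flox replicate 1) and 0.16 with the block. Signs turned for *Asz1* for KO under upper-quartile normalization (-0.0016) and for cKO with the block (0.0686), for *Tdrd9* for cKO in limma voom (0.0289), and for *Nr3c1* for KO under RLE (0.0114), DESeq2 (0.0112) and no filter (0.0237). With a library left out, log2 fold changes for KO were -0.3288 to 0.0619 for *Mov10l1*, -0.0947 to 0.2343 for *Tdrd1*, -0.5581 to 0.0941 for *Tdrkh*, -0.1423 to 0.1642 for *Asz1*, -0.2211 to 0.6398 for *Tex19.1*, -0.1971 to 1.6389 for *Pld6* and -0.5559 to 0.2751 for *Nr3c1*. For cKO they were -0.3089 to 0.1264 for *Tdrd9*, -0.2681 to 0.1139 for *Asz1*, -1.1708 to 0.3030 for *Pld6* and -0.5198 to 0.1853 for *Nr3c1*. The cause of these changes was not tested. Of 10 genes, 3 had an unadjusted p under 0.05 for KO without WT replicate 3 (963 of the 14213 genes tested there) and 0 without KO replicate 3, WT replicate 1 or WT replicate 2. For flox against WT, 1 had so without WT replicate 2 and 1 without WT replicate 3, and 0 with the block.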

Other observations

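Some genes of these lists could not be read in this table. *Sycp3*, which encodes a protein of the meiotic chromosome axis, was at 0 counts in all 13 libraries, as were *Btbd18* and *Wdr77* of the piRNA pathway list and *Trex1* of the repressor list. The interval of each lies wholly inside another gene, that of *Sycp3* inside *Chpt1* on the opposite strand. Across the table, all 1218 protein-coding genes of this kind were at 0 in every library, and so were all 673 of them that lie inside genes of the opposite strand alone. Of 11591 protein-coding genes with no overlap, 30.7% were at 0, and of 8589 with partial overlap, 11%. Among the genes given with a log2 fold change, the last 500 bases lie wholly inside another gene for *Tdrkh*, and 75 of the last 500 bases do so for *Setdb1*. Among the cell type markers with counts, all of the last 500 bases do so for *Csf1r*, of the macrophage list, and 481 for *Gng13*, of the somatic list. The sums of these lists may therefore lack reads of these genes.

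*Gtsf1l*, a relative of *Gtsf1*, was also at 0 in every library, without any overlap. *L1td1* was counted in 1 library only.

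Of 4 genes used as markers of male germ cells of this age, *Nanos2* was at 0 in every library. The others, *Dnmt3l*, *Piwil4* and *Tdrd5*, are also on the list of other piRNA pathway genes. The summed level of the markers was 65.7 to 213 CPM. *Tdrd5* made up most of it, at 58.4 to 203.7 CPM with the TMM factor, while *Dnmt3l* was at 0 in 8 libraries. The sum is therefore not a measure of male germ cells.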
